A study of Mus musculus with 37 samples.

Results

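The T cell receptor beta (TRB) repertoires of lymph nodes from mice given PLX3397 and PTX were compared between d105, with 6 libraries, and d95, with 3 libraries. The members are the 9 libraries whose labels give the treatment PLX+PTX, among the 37 of the series, with all of their clonotypes. All 9 libraries came from females with the MMTV-PyMT transgene, in which the promoter of the mouse mammary tumor virus drives the polyoma middle T oncogene in mammary epithelium, a model of mammary tumors, and the labels describe assignment by initial tumor volume. Both groups received PLX3397 (pexidartinib), an inhibitor of the macrophage receptor CSF1R, and PTX, the chemotherapy arm of the study. PLX3397 was fed from 80 days of age, at a daily 40 mg/kg. Injections of PTX began at 85 days of age, with 10 mg/kg given every 5 days. The study's antibody against PD-1, or an isotype antibody, was started at 87 days, and the labels do not say which PLX+PTX mice received the isotype. They give the days as d105 and d95 and the tissue as lymph node, and name no cell sort. The wider series also holds mice with PTX alone, mice with the added antibody and mice of the genotype FVBN labelled WTNT, and the question a day comparison answers here is how the repertoire of one treatment differs between its time points.

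A TRB gene is assembled in each developing T cell from 1 variable (TRBV), 1 diversity (TRBD) and 1 joining (TRBJ) segment, with bases trimmed and added where they meet. The junction encodes the third complementarity-determining region (CDR3), the loop that touches the presented peptide. Amino acid sequences that many junctions can encode are found in many mice and are called public, whereas most sequences are private to a mouse. The number of different sequences in a sample is its richness, and clonality measures how unevenly the cells are spread over them. Some TRBV segments are bound by superantigens of mouse mammary tumor virus, and others are used by T cells with near-invariant receptors.

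Since the libraries were made from genomic DNA, reads report rearranged genes, not their transcripts. A clonotype here is a distinct CDR3 nucleotide sequence with its TRBV and TRBJ segment. The files held 1327206 to 2831566 reads and 51505 to 91867 clonotypes per library at d105, and 222369 to 780923 reads and 12516 to 26528 clonotypes at d95. These ranges do not overlap. All libraries were therefore thinned to 222369 reads, the total of d95 replicate 3. The sample numbers in the labels also split by day: 4 d105 libraries have numbers from 37582 to 37592, the other 2 have 37817 and 37876, and the d95 libraries have 38851 to 38853. Day, sequencing yield and number block cannot be told apart. There are 3 weights: each clonotype counted once, reads, and the authors' normalised count. The last multiplies each read by a factor fixed for its V-J pair, and a thinned read was worth 2.11 to 2.31 normalised counts at d105 and 1.27 to 1.63 at d95. PCR reads carry no molecular identifiers, so intervals and limits cover counting error only.

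At equal reads the d105 libraries held more different TRB sequences than those of d95. Richness was 45604, 33408, 43563, 61205, 46669 and 44892 clonotypes in the d105 libraries, against 21712, 11613 and 13576 at d95. The lowest d105 library lay above the highest d95 library. The means were 45890 ± 8916 (SD, n = 6) and 15634 ± 5355 (SD, n = 3), a ratio of 2.94 (exact permutation test over 84 regroupings, 2-sided, p = 0.0119, adjusted p = 0.0258 over 13 measures). That p is the smallest the design can give. Of the 13 repertoire measures, 7 passed an adjusted p of 0.05 (53.8%). With any 1 of the d95 libraries left out there are 28 regroupings, the smallest p is 0.0357 and 0 of 13 passed. In bulk tissue, fewer T cells sampled and fewer kinds of T cells cannot be told apart, and the number of cells behind each library is not given in the sources used here. The same number of reads was spread over fewer clonotypes at d95: a clonotype averaged 3.63 to 6.66 reads at d105 and 10.2 to 19.1 reads at d95.

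The direction of clonality depended on the weight. By reads, clonality (1 minus the normalised Shannon entropy, from 0 for an even repertoire) was 0.0296, 0.0285, 0.0274, 0.0274, 0.0269 and 0.0293 at d105, against 0.0329, 0.0588 and 0.0479 at d95. Every d105 library lay below every d95 library, with means of 0.0282 ± 0.00113 (SD, n = 6) and 0.0465 ± 0.0130 (SD, n = 3) (exact permutation adjusted p = 0.0258). Without thinning this difference was -0.00312 (adjusted p = 0.563). By normalised counts the sign was turned, with 0.0542 ± 0.00294 at d105 and 0.0481 ± 0.00465 at d95 (exact permutation adjusted p = 0.0967), and without thinning that difference was 0.00888 and the groups were apart (adjusted p = 0.0221).

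Neither day had a dominant clone. The 10 largest clonotypes of a library together held 0.407% to 1.05% of reads at d105 and 0.495% to 0.918% at d95, ranges that overlap (exact permutation adjusted p = 0.786). By reads the largest single clonotype among the d105 libraries was TRBV26 TRBJ1-1 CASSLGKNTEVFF in replicate 4, with 679 of 222369 reads (0.305%, 95% Wilson interval 0.283 to 0.329). The largest at d95 was a TRBV1 TRBJ2-1 clonotype with 14 amino acids in replicate 2, with 476 reads (0.214%, 0.196 to 0.234). The other leaders by reads at d105 were TRBV24 TRBJ2-4 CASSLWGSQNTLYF in replicate 1 (0.176%), TRBV29 TRBJ2-7 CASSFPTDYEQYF in replicate 6 (0.163%), TRBV24 TRBJ2-5 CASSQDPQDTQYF in replicate 3 (0.0782%), TRBV26 TRBJ2-7 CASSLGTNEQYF in replicate 2 (0.0742%) and TRBV24 TRBJ2-3 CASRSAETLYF in replicate 5 (0.0720%). At d95 they were TRBV5 TRBJ2-2 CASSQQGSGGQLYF in replicate 3 (0.0985%) and a TRBV1 TRBJ1-1 clonotype with 15 amino acids in replicate 1 (0.0639%). No clonotype led by reads in more than 1 library.

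By normalised count all leaders came from 2 pairs, TRBV4 TRBJ2-7 with a factor of 6.93 and TRBV26 TRBJ2-3 with 75.6. TRBV4 TRBJ2-7 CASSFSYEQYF led in d105 replicates 1 and 2, with 0.173% and 0.157%, and in d95 replicate 2, with 0.426%. TRBV4 TRBJ2-7 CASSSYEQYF led in d105 replicate 5, with 0.194%, and in d95 replicate 1, with 0.182%. The same pair gave the leaders of d105 replicates 4 (0.217%) and 6 (0.285%), with CDR3s of 15 amino acids, and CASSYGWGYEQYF in d95 replicate 3 (0.322%). The leader of d105 replicate 3, TRBV26 TRBJ2-3 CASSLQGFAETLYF, held 0.524% of the normalised count from 35 reads.

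**Figure D1:**
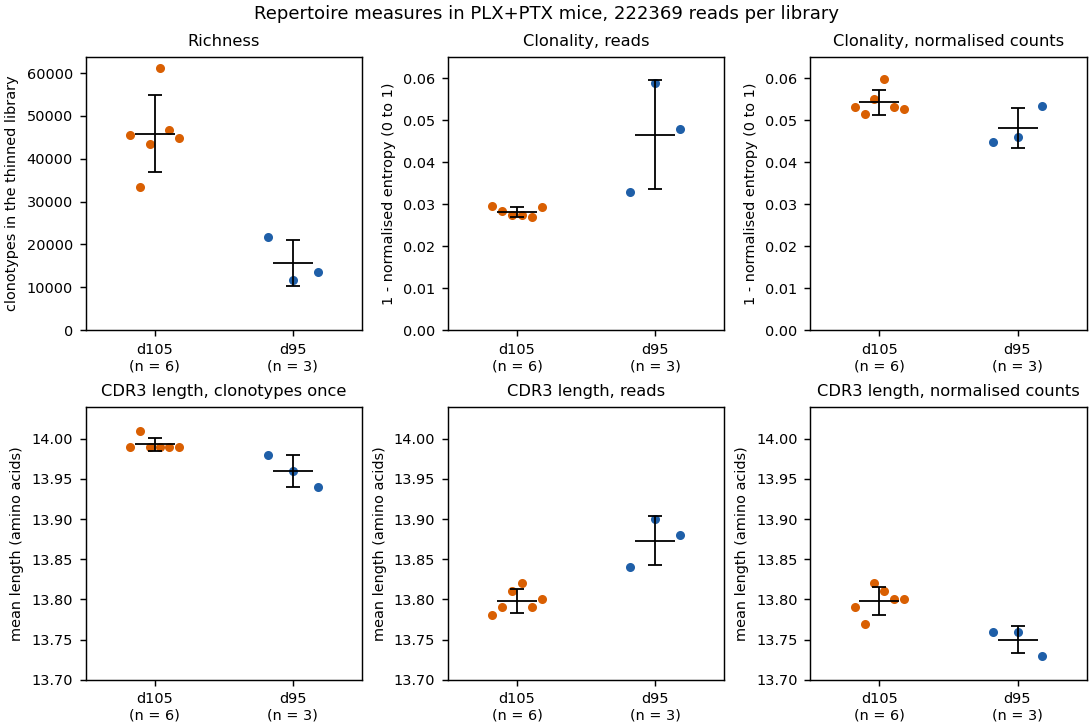
Richness, clonality and mean CDR3 length in each PLX+PTX library after thinning to 222369 reads; points are libraries, d105 (n = 6) left and d95 (n = 3) right, and bars are the mean ± SD. Richness is 33408 to 61205 clonotypes at d105 and 11613 to 21712 at d95, while clonality and CDR3 length change the order of the days with the weight.

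The V and J shares of clonotypes, each counted once, differed by small amounts. Shares were tested with limma on log2(percent + 0.01) for the 24 segments whose mean share reached 0.1%, and 6 passed an adjusted p of 0.05 (25.0%), 4 higher (16.7%) and 2 lower (8.33%) at d105. The highest change among these was in TRBV26, one of the segments bound by mammary tumor virus superantigens. TRBV26 made up 5.30%, 5.47%, 5.29%, 5.32%, 5.14% and 5.28% of the d105 clonotypes, against 4.39%, 4.08% and 3.74% at d95. The groups did not overlap, and the means were 5.30% ± 0.105 (SD, n = 6) and 4.07% ± 0.326 (SD, n = 3), with 0.38 between them on the log2 scale (SE 0.0457, adjusted p = 0.000586 in limma). TRBV3 followed with 13.6% ± 0.416 at d105 and 11.3% ± 0.966 at d95 (log2 difference 0.28, limma adjusted p = 0.00405). TRBV4 (8.02% ± 0.293 at d105 and 7.39% ± 0.194 at d95, adjusted p = 0.0476) and TRBJ2-5 (13.4% ± 0.275 at d105 and 12.6% ± 0.363 at d95, adjusted p = 0.0415) were higher at d105 by 0.12 and 0.09 on the log2 scale of limma.

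TRBV24 and TRBJ1-3 were the segments that fell with each clonotype counted once. TRBV24 made up 16.2%, 15.2%, 16.3%, 16.7%, 16% and 15.8% of clonotypes at d105, against 18.7%, 17.8% and 19.5% at d95. Every d105 library was below every d95 library (log2 difference -0.22, SE 0.0367, limma adjusted p = 0.00317). TRBJ1-3 averaged 2.21% ± 0.205 at d105 and 2.62% ± 0.0957 at d95 (log2 difference -0.25, limma adjusted p = 0.0480). When 1 library was left out, TRBV26, TRBV3 and TRBV24 passed in all 9 such fits, TRBV4 and TRBJ2-5 in 2 and TRBJ1-3 in 1. Without d105 replicate 3, 4, 5 or 6, or d95 replicate 2, 3 of 24 segments passed.

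The read-based shares moved more. With the authors' normalised counts 14 of 24 segments passed (58.3%), 7 in each direction, and the size of the difference was larger than with each clonotype once for 23 of 24 segments. The median absolute log2 difference was 0.44 with normalised counts, 0.40 with reads and 0.07 with each clonotype once. Under both weights 4 segments passed, TRBV26, TRBV3, TRBJ2-5 and TRBV24, and all 4 kept their direction. TRBV26 held 13.0%, 12.9%, 12.2%, 13.5%, 11.3% and 11.2% of the normalised count at d105, against 8.89%, 6.59% and 6.57% at d95 (log2 difference 0.76, limma adjusted p = 0.000474). TRBV3 held 15.2% to 16.4% at d105, against 13.2%, 5.16% and 8.29% at d95 (log2 difference 0.95, SE 0.235, limma adjusted p = 0.00752). TRBV24 held 6.98% to 8.56% at d105, against 11.9%, 23.4% and 16.7% at d95 (log2 difference -1.18, SE 0.182, limma adjusted p = 0.000500). The d95 libraries spread far more than those of d105 in both TRBV3 and TRBV24.

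Among the joining segments the TRBJ2 cluster, which lies downstream of TRBJ1, split. By normalised count TRBJ2-5 (20.2% ± 0.798 at d105 and 12.3% ± 1.47 at d95), TRBJ2-4 (10.6% ± 0.652 at d105 and 6.43% ± 0.285 at d95) and TRBJ2-3 (9.22% ± 0.672 at d105 and 6.30% ± 0.913 at d95) rose, with log2 differences of 0.72, 0.71 and 0.55. TRBJ2-7, the most used joining segment, fell to 29.3% ± 1.26 at d105, against 39.8% ± 2.23 at d95 (log2 difference -0.44, limma adjusted p = 0.000403), and TRBJ2-2 fell to 5.50% ± 0.121, against 7.06% ± 0.570 at d95. Of the TRBJ1 cluster, TRBJ1-6 held 3.0%, 2.25%, 2.46%, 2.62%, 2.61% and 2.65% at d105, against 4.67%, 5.81% and 5.42% at d95, with -1.03 between the days on the log2 scale (SE 0.102, adjusted p = 4.95e-05 in limma). TRBJ1-2 fell to 2.15% ± 0.156 at d105, against 2.92% ± 0.201 at d95. In the cluster lists 3 of 6 tested TRBJ2 segments rose and 2 fell, and of 6 tested TRBJ1 segments 0 rose and 2 fell, beside 29.2% of all segments in each direction. In raw reads TRBJ2-3 (-0.10, limma adjusted p = 0.421), TRBJ2-2 (0.09, adjusted p = 0.482) and TRBJ1-2 (0.09, adjusted p = 0.329) had the other sign and did not pass. TRBJ2-4 (0.06, adjusted p = 0.498), TRBJ2-5 (0.15, adjusted p = 0.181) and TRBJ2-7 (-0.04, adjusted p = 0.610) kept their sign in raw reads but did not pass in limma. TRBJ1-6 passed in raw reads too (-0.52, limma adjusted p = 0.00112), and TRBJ2-5 passed with each clonotype once, as given above.

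The 4 tested segments of the superantigen list were TRBV26, TRBV20, TRBV19 and TRBV29. TRBV26 is described above. By normalised count TRBV20 held 1.00%, 1.88%, 2.59%, 1.93%, 1.85% and 2.12% at d105, against 1.49%, 0.0394% and 0.250% at d95 (log2 difference 2.78, SE 0.869, limma adjusted p = 0.0195). d95 replicate 1 lay within the d105 range and the other 2 far below it, and with each clonotype once TRBV20 did not pass (1.54% ± 0.209 at d105 and 0.770% ± 0.694 at d95, adjusted p = 0.0822). TRBV19, also used by mucosal-associated invariant T cells, fell by normalised count to 3.58% ± 0.555 at d105, against 4.94% ± 0.407 at d95 (limma adjusted p = 0.0154), but not with each clonotype once (8.86% ± 1.08 at d105 and 9.73% ± 0.400 at d95, adjusted p = 0.335). TRBV29, used by invariant natural killer T cells, had 6.93% ± 0.368 of clonotypes at d105 and 6.90% ± 0.620 at d95 (limma adjusted p = 0.997). By normalised count it held 3.47% ± 0.165 at d105 and 3.03% ± 0.743 at d95 (limma adjusted p = 0.234). In raw reads TRBV29 was higher at d105, with 10.1% ± 0.355 against 5.80% ± 1.81 at d95 and no overlap (log2 difference 0.86, limma adjusted p = 0.00788). On the list by normalised count 2 of 4 rose and 1 fell, beside 29.2% of all segments in each direction. With each clonotype once 1 rose and 0 fell, beside 16.7% and 8.33% of all segments.

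The invariant T cell list adds TRBV1. TRBV1 held 7.55%, 7.01%, 6.49%, 6.65%, 7.00% and 7.21% of the normalised count at d105, against 8.35%, 19.3% and 12.1% at d95 (log2 difference -0.84, limma adjusted p = 0.00791), with the highest value in d95 replicate 2. With each clonotype once it was 15.8% ± 0.442 at d105 and 17% ± 1.39 at d95 (limma adjusted p = 0.143). Of the 3 tested segments of that list, 2 fell by normalised count, beside 29.2% of all segments, and 0 passed with each clonotype once, beside 25.0%. TRBV5, on neither list, rose by normalised count to 16.5% ± 0.790 at d105, against 14.1% ± 1.05 at d95 (log2 difference 0.23, limma adjusted p = 0.0187), with overlapping groups.

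The strain of the MMTV-PyMT mice is not given in the sources used here. FVB/N mice, a common background of this transgene, carry a germline deletion of several TRBV segments. The 9 segments of that deletion took 0.00658% to 0.0459% of clonotypes at d105 and 0.0461% to 0.0663% at d95. Of reads they took 0.0135% to 0.0998% at d105 and 0.0112% to 0.0265% at d95, and 0 of them reached the share needed for a test.

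**Figure D2:**
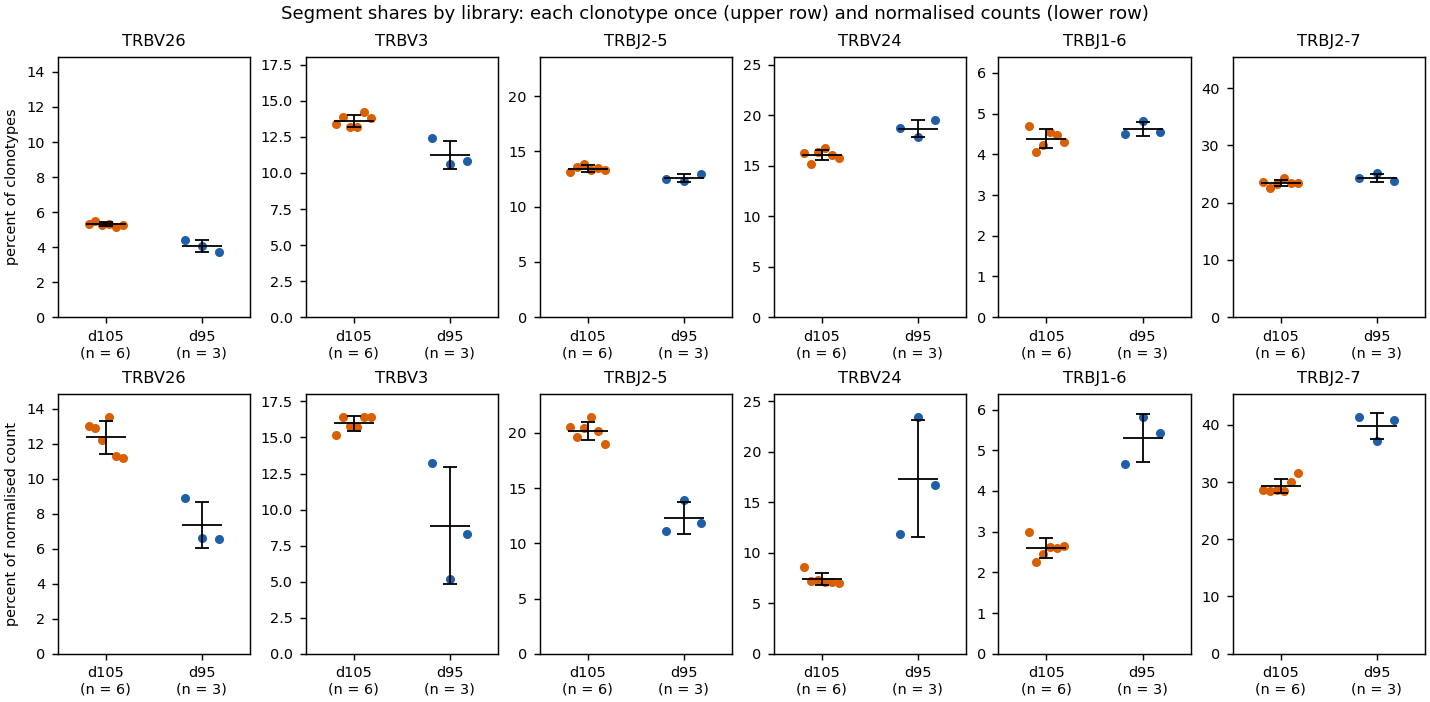
Shares of 6 TRBV and TRBJ segments in each PLX+PTX library, as percent of clonotypes (upper row) and percent of the normalised count (lower row), with the axis from 0 and equal within a segment; points are libraries, d105 left, and bars are the mean ± SD. TRBV24 is 15.2% to 16.7% at d105 and 17.8% to 19.5% at d95 in the upper row, and 6.98% to 8.56% against 11.9% to 23.4% in the lower row.

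Reads per clonotype link the weights. For each segment the share of reads was divided by the share of clonotypes, a ratio of 1 meaning the library's average, and 9 of 24 segments passed (37.5%), 7 higher (29.2%) and 2 lower (8.33%) at d105. TRBJ1-6 clonotypes had 1.20, 1.12, 1.21, 1.15, 1.12 and 1.19 times the average reads at d105, against 1.54, 1.53 and 1.68 at d95 (limma log2 difference -0.44, adjusted p = 0.000402). This segment's clonotypes were not detectably more or less frequent (4.38% ± 0.233 at d105 and 4.62% ± 0.176 at d95, limma adjusted p = 0.258). Its share of reads had a log2 difference of -0.52, which came with fewer reads per clonotype. By normalised count, into which the factors of the V-J pairs also enter, the difference was larger, at -1.03. TRBV1 clonotypes had 0.926 to 0.962 times the average at d105, against 1.01, 1.65 and 1.25 at d95 (adjusted p = 0.0181). Without d95 replicate 1, 19 of 24 segments passed. The 7 that rose were TRBV23, TRBJ1-5, TRBV29, TRBV20, TRBJ1-1, TRBV30 and TRBJ1-3, for example TRBV23 with 1.44 ± 0.0789 at d105 and 0.900 ± 0.0276 at d95 (limma adjusted p = 5.92e-05).

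Joined V-J pairs showed larger differences than single segments. With each clonotype once 24 of 112 tested pairs passed (21.4%), 15 higher (13.4%) and 9 lower (8.04%) at d105, and with normalised counts 63 of 106 passed (59.4%), 32 higher and 31 lower. The days did not overlap in 23 pairs (20.5%) with each clonotype once and in 54 (50.9%) by normalised count. The TRBV26 TRBJ2-3 pair gave 72, 72, 99, 125, 81 and 54 clonotypes at d105, against 4, 2 and 2 at d95. In reads these were 107, 115, 179, 172, 124 and 84 at d105, against 5, 2 and 3 at d95. As shares of clonotypes the means were 0.183% ± 0.0403 at d105 and 0.0168% ± 0.00188 at d95, with 2.82 between them on the log2 scale (SE 0.180). The groups were far apart. Pairs were tested where the mean share over the 9 libraries, 6 of them d105, reached 0.1%. A pair rare at d95 can thus enter more easily than one rare at d105. TRBV26 TRBJ2-3 entered only through d105, so its values are a description without a p-value. TRBV5 TRBJ2-5 had 0.675%, 0.847%, 0.849%, 0.691%, 0.825% and 0.706% of clonotypes at d105, against 0.276%, 0.215% and 0.243% at d95 (log2 difference 1.61, limma adjusted p = 7.76e-06). In the same test TRBV3 with TRBJ2-3 rose by 1.27 on the log2 scale (1.17% ± 0.155 at d105 and 0.492% ± 0.150 at d95), and TRBV26 with TRBJ2-4 by 1.08 (0.411% ± 0.0511 at d105 and 0.196% ± 0.0675 at d95). TRBV20 TRBJ2-4 was the other pair among the 5 highest, with 0.189% ± 0.0543 at d105 and 0.0708% ± 0.0560 at d95 (log2 difference 1.54). Its d95 mean was under 0.1% too, so no p-value is given. Its groups overlapped, and with 1 library left out it passed in 2 of 9 fits, with log2 differences of 0.90 to 2.07. Without d105 replicate 1, 2, 3, 5 or 6, 13 to 15 pairs passed with each clonotype once.

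Of the 9 pairs that fell with each clonotype once, 6 used TRBV24 and 4 used TRBJ1-3. At an equal number of clonotypes per library 7 pairs were higher and 0 lower, so none of the 9 passed there, and with 1 library left out 2 to 7 pairs were lower. The 5 lowest were TRBV1 TRBJ1-3 (-0.70), TRBV29 TRBJ1-3 (-0.54), TRBV5 TRBJ1-3 (-0.54), TRBV24 TRBJ1-3 (-0.49) and TRBV24 TRBJ2-1 (-0.31). With 1 library left out, the TRBJ1-3 pairs of TRBV1, TRBV29, TRBV5 and TRBV24 passed in 2, 1, 4 and 9 of 9 fits. TRBV24 TRBJ1-3 made up 0.208%, 0.198%, 0.246%, 0.216%, 0.253% and 0.241% of clonotypes at d105, against 0.327%, 0.327% and 0.309% at d95 (limma adjusted p = 0.00424). No d105 library reached the d95 values.

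By normalised count the 5 pairs with the highest rise were TRBV5 TRBJ2-4 (log2 difference 4.56), TRBV26 TRBJ2-3 (4.50), TRBV20 TRBJ2-2 (2.88), TRBV5 TRBJ2-5 (2.81) and TRBV20 TRBJ2-3 (2.53). The 5 with the largest fall were TRBV1 TRBJ1-6 (-1.73), TRBV1 TRBJ2-1 (-1.61), TRBV24 TRBJ1-3 (-1.49), TRBV24 TRBJ2-7 (-1.44) and TRBV24 TRBJ1-6 (-1.42). TRBV5 TRBJ2-4 rested on few reads, with 41, 58, 43, 53, 47 and 45 at d105, against 5, 0 and 1 at d95. Such a pair reaches the mean share needed for a test through the d105 libraries, so its rank is a description. TRBV1 TRBJ1-6 held 0.330% ± 0.0469 of the normalised count at d105 and 1.19% ± 0.513 at d95 (limma adjusted p = 0.000190), while its share of clonotypes was 0.888% to 1.1% at d105 and 0.986% to 1.06% at d95 (adjusted p = 0.700).

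**Figure D3:**
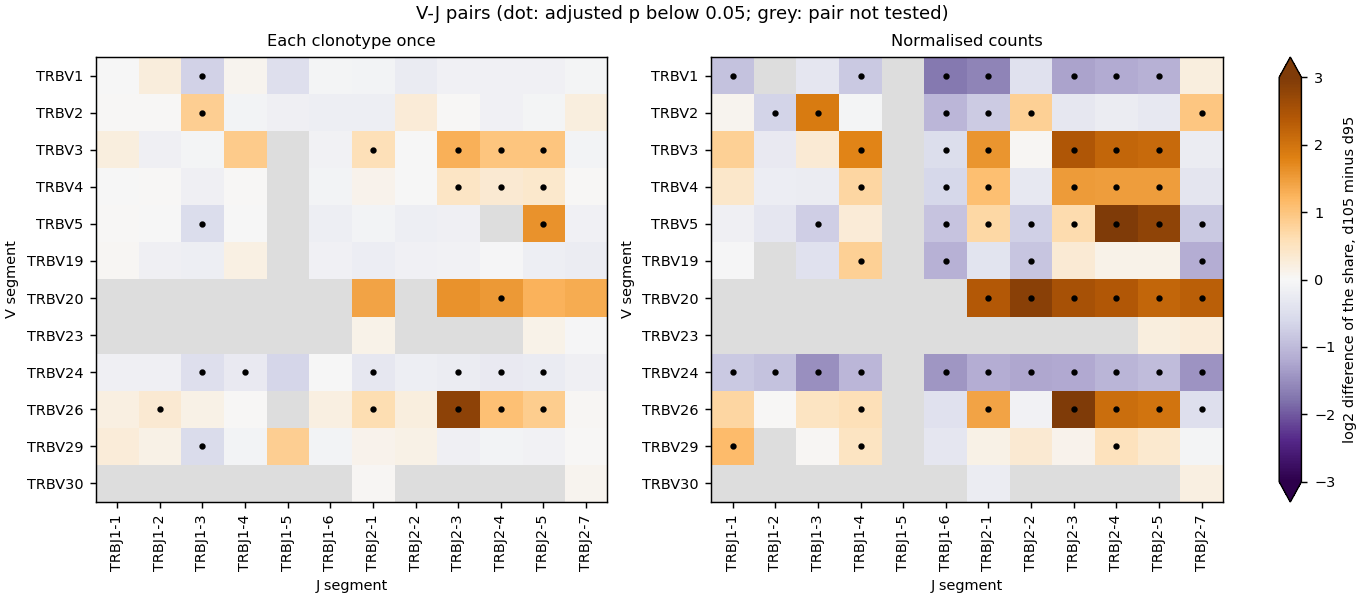
Log2 difference of the share of each TRBV (rows) and TRBJ (columns) pair, d105 minus d95, with each clonotype once (left) and with normalised counts (right); dots mark pairs with an adjusted p under 0.05 and grey pairs were not tested. The TRBJ2-3, TRBJ2-4 and TRBJ2-5 columns are higher at d105 with TRBV3, TRBV4 and TRBV26, and the tested TRBV24 pairs have differences below 0, not all of them past the threshold on the left.

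Most pairs with a high factor from the authors were higher at d105. Among the pairs above the factor was 93.0 for TRBV5 TRBJ2-4, 75.6 for TRBV26 TRBJ2-3 and 63.1 for TRBV5 TRBJ2-5. Of 13 tested pairs with a factor of at least 10, 10 rose and 0 fell with each clonotype once, a weight in which the factor takes no part, beside 13.4% of all pairs rising. By normalised count 14 of 15 such pairs rose and 0 fell, and in raw reads 9 of 9 rose, beside 30.2% and 48.5% of all pairs. The mean share of 0.1% needed for a test is taken over 6 d105 and 3 d95 libraries. A pair rare at d95 can thus enter through d105 alone. TRBV5 TRBJ2-5, for example, had 71, 27 and 35 of 222369 reads in the d95 libraries. The counts of high-factor pairs that rose are therefore a description only. Pairs with a factor under 1 differed by weight. By normalised count, into which the factor enters, 1 of 28 rose and 17 fell, beside 30.2% and 29.2% of all pairs. In raw reads 16 of 36 rose and 11 fell, beside 48.5% and 14.1%, and with each clonotype once 1 of 34 rose and 3 fell, beside 13.4% and 8.04%. Across pairs, which are not independent, the log2 factor and the log2 day difference had a Spearman rho of 0.421 over 112 pairs with each clonotype once and 0.698 over 106 pairs with normalised counts. Pairs with a factor of at least 10 made up 7.91% to 10.2% of clonotypes and 2.94% to 3.37% of reads at d105, against 4.77% to 5.74% of clonotypes and 0.426% to 0.895% of reads at d95. A high factor marks a pair whose reads the authors scaled up. The part of amplification in these day differences was not tested.

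**Figure D4:**
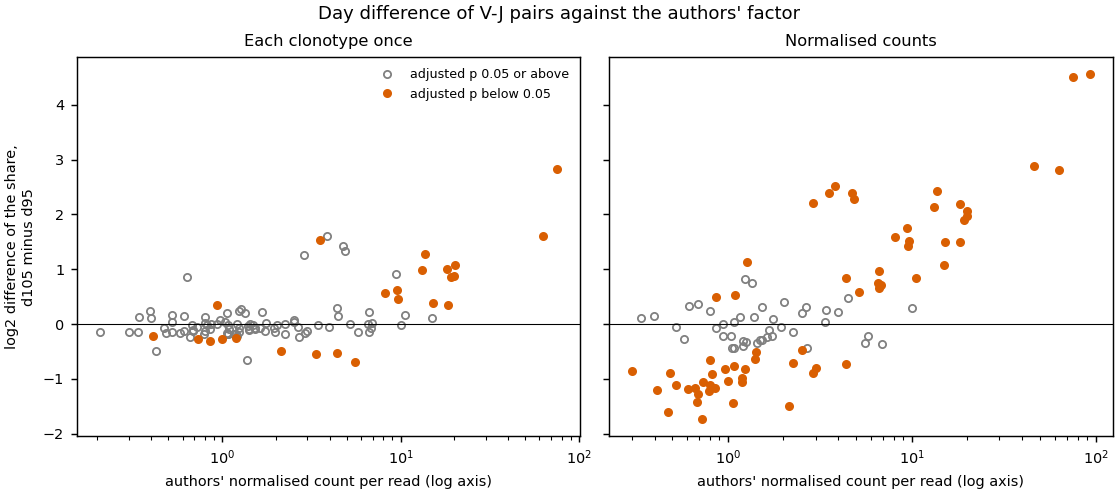
Log2 difference of V-J pair shares, d105 minus d95, against the authors' normalised count per read (log axis), with each clonotype once (left, 112 pairs) and with normalised counts (right, 106 pairs); filled points have an adjusted p under 0.05. On the right, the pairs with factors of 93.0 and 75.6 lie furthest above 0, at 4.56 and 4.50, while other pairs above 2.5 have lower factors.

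Day differences of the same sign were measured in the other treatments. There too the d95 libraries had fewer reads (at most 917752) than the d105 libraries (at least 1090573), and their sample numbers lay in the later block. Day, sequencing yield and number block thus cannot be told apart in those treatments either. In a fit over the MMTV-PyMT libraries, the mean day difference of PTX alone and of the R and NR groups with added antibody passed for 13 of 24 segments with each clonotype once (54.2%) and 18 of 24 by normalised count (75.0%). All 6 and all 14 segments called in PLX+PTX had the same sign there. By normalised count this held for every other tested segment too except TRBJ1-4 (0.0933 in PLX+PTX, -0.0655 in the others). With each clonotype once, TRBJ1-1, TRBJ1-5, TRBV2, TRBV5, TRBV23, TRBV29 and TRBV30 had opposite signs, and the remaining tested segments the same sign. A shared sign thus does not set the called segments apart by normalised count. TRBV26, for example, had a log2 difference of 0.38 in PLX+PTX and 0.23 in the other treatments with each clonotype once, and TRBV24 had -0.22 in PLX+PTX and -0.12 in the others. The limma test of the difference between PLX+PTX and the others called 0 of 24 segments under both weights, with 3 at an unadjusted p under 0.05 under each. Of the pairs, the other treatments' day difference passed for 25 of 112 (22.3%) with each clonotype once and 85 of 104 (81.7%) by normalised count. For pairs the test of the difference called 0 of 112 with each clonotype once and 0 of 104 by normalised count, with 7 and 18 at an unadjusted p under 0.05. Without d95 replicate 1 of PLX+PTX, 6 segments passed by normalised count, where the log2 day difference of PLX+PTX was above that of the others for TRBV3 (by 0.84), TRBV26 (0.46), TRBV20 (2.70) and TRBJ1-1 (0.24) and below it for TRBV24 (-0.69) and TRBV1 (-0.62). With each clonotype once only TRBV20 passed in that fit (1.61, limma adjusted p = 0.0143). Replicate 1 was the only library left out of this contrast. By normalised count it was the d95 library nearest to d105 in TRBV3, TRBV24, TRBV1, TRBV26 and TRBV20. TRBV3, for example, was 13.2% there, against 5.16% and 8.29% in d95 replicates 2 and 3. The contrast without replicate 2 or 3 was not tested, so these calls do not show a difference particular to PLX+PTX. TRBV26 TRBJ2-3 made up 0.120% to 0.227% of clonotypes in the PLX+PTX libraries of d105 and 0.0147% to 0.0184% in those of d95. In PTX mice it made up 0.225% to 0.251% at d105 and 0.00671% to 0.0230% at d95, and in the d105 libraries labelled WTNT 0.103% to 0.201%.

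CDR3 length shifted by hundredths of an amino acid, in a direction set by the weight. With each clonotype once the mean was 13.99 ± 0.00739 amino acids at d105 and 13.96 ± 0.0166 at d95, and with normalised counts 13.80 ± 0.0186 at d105 and 13.75 ± 0.0136 at d95. With reads the sign was turned, at 13.80 ± 0.0148 for d105 and 13.87 ± 0.0307 for d95. In each of the 3 weights the groups did not overlap (exact permutation adjusted p = 0.0258 each). Among the 9 length classes tested with each clonotype once 2 passed (22.2%). CDR3s of 15 amino acids made up 23.5% to 24.0% of clonotypes at d105, against 22.9%, 23.0% and 22.9% at d95 (limma log2 difference 0.05, adjusted p = 0.00409). CDR3s of 10 amino acids made up 0.611% ± 0.0443 at d105 and 0.762% ± 0.103 at d95 (log2 difference -0.31, adjusted p = 0.0399). By normalised count length 15 rose as well, lengths 10 and 12 fell, and 3 of 10 classes passed (30.0%), but 1 with another thinning seed. In raw reads length 12 passed in the other direction (log2 difference 0.09, limma adjusted p = 0.0309), and length 15 had a log2 difference of -0.04 (adjusted p = 0.0513).

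At equal reads the junction measures gave no calls. Of 14 junction measures, 7 with each clonotype once and 7 with reads, 0 passed the exact permutation test after adjustment (lowest adjusted p = 0.167), with 2 at an unadjusted p under 0.05. A measure that stands alone among 14 cannot go below that adjusted p with 84 regroupings. V bases trimmed by reads was at this limit, with 2.908 ± 0.0203 at d105 and 2.804 ± 0.0353 at d95 and no overlap between the days (exact permutation p = 0.0119). Clonotypes had 9.62 ± 0.0429 bases between the end of V and the start of J at d105 and 9.61 ± 0.0501 at d95. Where a D segment was assigned, 2.955 ± 0.0303 bases had been inserted at d105 and 3.025 ± 0.0979 at d95. TRBD1 gave 55.74% ± 0.393 of the assigned D segments at d105 and 56.25% ± 0.564 at d95. On the unthinned files 6 of 7 of these measures passed, for example bases between V and J with 10.2 ± 0.151 at d105 and 9.70 ± 0.0887 at d95, where depth differs between the days.

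At d105 6.01% ± 0.657 of amino acid clonotypes had over 1 nucleotide form, against 4.39% ± 0.599 at d95 (exact permutation adjusted p = 0.0442). At an equal number of 11613 clonotypes per library the difference was -1.59 percentage points, with the sign turned, and it passed in that direction (exact permutation adjusted p = 0.0179). The direction of this measure thus depended on how the libraries were made equal. Amino acid clonotypes present in 5 or more of these libraries were 5.90% ± 0.659 of those in a d105 library and 9.16% ± 0.858 at d95 (exact permutation adjusted p = 0.0258), with no overlap. The 9 libraries are 6 richer ones of d105 and 3 poorer ones of d95. A d95 clonotype can thus be matched in more rich libraries than a d105 clonotype can. The design by itself favours a higher percent at d95, so this test cannot tell whether d95 repertoires are more public. Of 240362 amino acid clonotypes in the 9 libraries, 205614 (85.5%) were in 1 library and 96 in all 9.

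Overlap between libraries was highest among d105 libraries at equal reads. The Morisita-Horn index, from 0 for no shared clonotypes to 1 for identical repertoires, averaged 0.174 over 15 pairs of d105 libraries, 0.0875 over 3 pairs of d95 libraries and 0.105 over 18 pairs across days. The mean within days minus that between days was 0.0545 (exact permutation p = 0.0119). The Jaccard index, which counts each clonotype once, averaged 0.0576, 0.0294 and 0.0350 for the same kinds of pairs (difference 0.0179, exact permutation p = 0.0119). The Morisita-Horn values above carry read weights. At an equal number of clonotypes each chosen clonotype counted 1 in both indices, so read-weighted overlap was not tested there. The differences were then -0.002 for Morisita-Horn (p = 0.357) and -0.000317 for Jaccard (p = 0.631) in the same exact permutation test. Jaccard means were 0.0218 within d105, 0.0250 within d95 and 0.0227 between.

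Single public clonotypes differed in few cases. Clonotypes of the same V, J and amino acid CDR3 were merged, and the 3195 present in 5 or more libraries went into a limma fit of log2(normalised CPM + 10), CPM being counts per 1000000. Of these 25 passed (0.782%), 15 higher (0.469%) and 10 lower (0.313%) at d105, with 481 at an unadjusted p under 0.05. The filter shapes these counts. A clonotype confined to the 6 d105 libraries can enter, one confined to the 3 d95 libraries cannot, and 570 of the 3195 (17.8%) had no read in any thinned d95 library while 0 had none at d105. All 15 higher ones were in 6 of 6 d105 libraries and 14 of them in 0 d95 libraries, which was so for 99 of the 3195 (3.10%). Those 14 entered only through the day on which they are high, so the counts by direction cannot be compared, and their values are given as a description without p-values. In reads 1 clonotype passed, edgeR's quasi-likelihood test called 3, and limma called 2 without d95 replicate 3, 71 without d95 replicate 1 and 8 to 22 without 1 of the others.

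The CDR3 sequences below show how the same receptor chain was encoded in different libraries, for 1 clonotype read in d105 libraries but in no thinned d95 library of PLX+PTX, 2 that fell and 1 found in all 9 libraries. Of TRBV19 TRBJ2-7 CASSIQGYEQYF 4 of 5 forms are shown, and of TRBV4 TRBJ2-4 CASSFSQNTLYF 2 of 3. They are read from the deposited files, 5′ to 3′, with the bases between the end of V and the start of J in capitals. The TRB genes lie on mouse chromosome 6.
TRBV26 TRBJ2-2 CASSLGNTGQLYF, in 4 d105 and 0 d95 libraries: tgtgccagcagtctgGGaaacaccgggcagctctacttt
TRBV26 TRBJ2-2 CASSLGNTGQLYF, in 3 d105 and 0 d95 libraries: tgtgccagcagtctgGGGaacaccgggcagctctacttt
TRBV26 TRBJ2-2 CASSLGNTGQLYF, in 1 d105 and 0 d95 libraries: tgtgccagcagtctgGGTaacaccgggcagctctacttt
TRBV3 TRBJ1-6 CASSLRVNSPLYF, in 1 d105 and 3 d95 libraries: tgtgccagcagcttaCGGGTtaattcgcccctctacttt
TRBV3 TRBJ1-6 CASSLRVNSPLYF, in 0 d105 and 1 d95 library: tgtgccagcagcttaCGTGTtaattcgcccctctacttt
TRBV3 TRBJ1-6 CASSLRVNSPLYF, in 1 d105 and 0 d95 libraries: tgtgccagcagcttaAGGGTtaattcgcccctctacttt
TRBV19 TRBJ2-7 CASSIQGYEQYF, in 0 d105 and 1 d95 library: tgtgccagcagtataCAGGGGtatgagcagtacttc
TRBV19 TRBJ2-7 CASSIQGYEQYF, in 0 d105 and 1 d95 library: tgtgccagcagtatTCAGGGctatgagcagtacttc
TRBV19 TRBJ2-7 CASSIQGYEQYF, in 0 d105 and 1 d95 library: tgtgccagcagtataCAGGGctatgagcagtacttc
TRBV19 TRBJ2-7 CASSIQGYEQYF, in 1 d105 and 0 d95 libraries: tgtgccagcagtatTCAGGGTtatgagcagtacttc
TRBV4 TRBJ2-4 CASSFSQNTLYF, in 6 d105 and 3 d95 libraries: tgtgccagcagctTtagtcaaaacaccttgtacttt
TRBV4 TRBJ2-4 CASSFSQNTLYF, in 2 d105 and 1 d95 library: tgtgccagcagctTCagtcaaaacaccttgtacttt

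TRBV26 TRBJ2-2 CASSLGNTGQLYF, with 2 or 3 bases between V and J in the forms above, had 14, 18, 30, 24, 15 and 34 reads at d105 and 0, 0 and 0 at d95. Its mean of 75.4 CPM at d105 was 4.74-fold higher than a limit of 3 reads in each d95 library. That limit covers the counting of reads only, not cells that were not sampled. A clonotype averaged 10.2 to 19.1 reads in the d95 libraries, so the folds over this limit are not lower bounds on cells. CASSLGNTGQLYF was found in 4 of the 11 unthinned d95 libraries of other treatments. A TRBV5 TRBJ2-7 clonotype with a CDR3 of 15 amino acids had 9, 16, 17, 12, 17 and 13 reads at d105 and 0 in each d95 library, 2.93-fold over the limit. TRBV4 TRBJ2-7 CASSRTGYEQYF had 10, 3, 14, 23, 8 and 18 reads at d105 and 0 at d95, 2.67-fold over the limit, in 9 nucleotide forms.

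The other 5 named clonotypes of this kind had fewer reads. TRBV2 TRBJ2-7 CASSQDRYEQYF had 5 to 13 reads at d105 and 0 at d95, 1.84-fold over the limit of 3 reads. TRBV4 TRBJ2-5 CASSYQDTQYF had 2 to 17 reads at d105 and 0 at d95, 1.37-fold over that limit. A TRBV5 TRBJ2-5 clonotype of 15 amino acids had 2, 6, 1, 3, 8 and 7 reads at d105 and 0 at d95. TRBV5 TRBJ2-5 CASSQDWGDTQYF had 1 to 5 reads at d105 and 0 at d95, and TRBV3 TRBJ2-4 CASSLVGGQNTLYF had 2 to 5 reads at d105 and 0 at d95. For these 3 the d105 mean lies under the limit set by 3 reads in the d95 libraries, so no fold is given. In 7 of the 15 higher clonotypes the V-J pair has a factor of at least 10, beside 117 of the 3195 tested (3.66%). This count is a description only, since the factor enters the CPM that was fitted. For TRBV5 TRBJ2-5 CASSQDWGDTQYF, with a factor of 63.1, 1 read was 123 to 134 CPM at d105, against the 10 CPM added before the log. Of the 15 higher ones, 14 were found in at least 1 of the 11 unthinned d95 libraries of other treatments and 3 in the unthinned d95 files of PLX+PTX.

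The clonotypes that fell had more reads behind them. TRBV3 TRBJ1-6 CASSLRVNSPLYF had 2, 0, 4, 0, 0 and 0 reads at d105, against 27, 25 and 27 at d95 (log2 difference -3.38, SE 0.545, limma adjusted p = 0.0126). One of its 3 nucleotide forms was in all 3 d95 libraries. In the other treatments the clonotype was in 9 of the 11 d95 libraries and 2 of the 12 d105 libraries, all counted without thinning. The 10 clonotypes that fell were in 0 to 9 of these d95 libraries and 2 to 9 of these d105 libraries. Only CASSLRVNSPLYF and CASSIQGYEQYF (4 of 11 and 4 of 12) were in a higher share of the d95 ones. The rest went the other way, for example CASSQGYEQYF, in 0 of 11 and 7 of 12. A TRBV24 TRBJ2-4 clonotype with a CDR3 of 16 amino acids had 0, 9, 12, 16, 5 and 6 reads at d105, against 88, 61 and 68 at d95 (log2 difference -3.12, adjusted p = 0.0259). TRBV19 TRBJ2-7 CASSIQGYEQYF had 0, 1, 0, 5, 0 and 0 reads at d105, against 24, 27 and 56 at d95 (log2 difference -2.85, adjusted p = 0.0327), and no 2 libraries shared any of its 5 forms. TRBV3 TRBJ2-7 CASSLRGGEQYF likewise had 0 to 3 reads at d105, against 21, 16 and 37 at d95, in 6 forms of which 0 were in both days.

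TRBV1 TRBJ2-5 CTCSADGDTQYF had 6, 9, 0, 3, 0 and 15 reads at d105, against 43, 60 and 54 at d95 (limma adjusted p = 0.0327), and TRBV1 TRBJ2-4 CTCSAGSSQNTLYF had 0 to 10 reads at d105, against 36, 45 and 78 at d95 (adjusted p = 0.0354). A TRBV24 TRBJ1-3 clonotype of 15 amino acids had 0 to 5 reads at d105, against 13, 15 and 13 at d95. TRBV26 TRBJ2-7 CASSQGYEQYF had 0, 0, 14, 11, 0 and 0 reads at d105, against 24, 38 and 66 at d95, although its V segment rose as a whole. All 10 clonotypes that fell were in 3 of 3 d95 libraries, with 11 to 107 reads each. Clonotypes seen at d95 had more reads in general, as given above for the mean reads per clonotype.

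The 3 most abundant clonotypes found in all 9 libraries did not pass. TRBV4 TRBJ2-7 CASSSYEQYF had 108, 102, 75, 59, 143 and 46 reads at d105, against 95, 67 and 29 at d95 (1238 ± 499 CPM at d105 and 1372 ± 636 CPM at d95, limma adjusted p = 0.966). TRBV4 TRBJ2-4 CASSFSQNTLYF had 13 to 23 reads at d105, against 8, 2 and 4 at d95 (adjusted p = 0.257), and the form with 1 base between V and J was in all 9 libraries. TRBV5 TRBJ2-7 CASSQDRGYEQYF had 20 to 50 reads at d105, against 9, 120 and 90 at d95 (adjusted p = 0.499), in 20 nucleotide forms of which 6 were in both days.

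**Figure D5:**
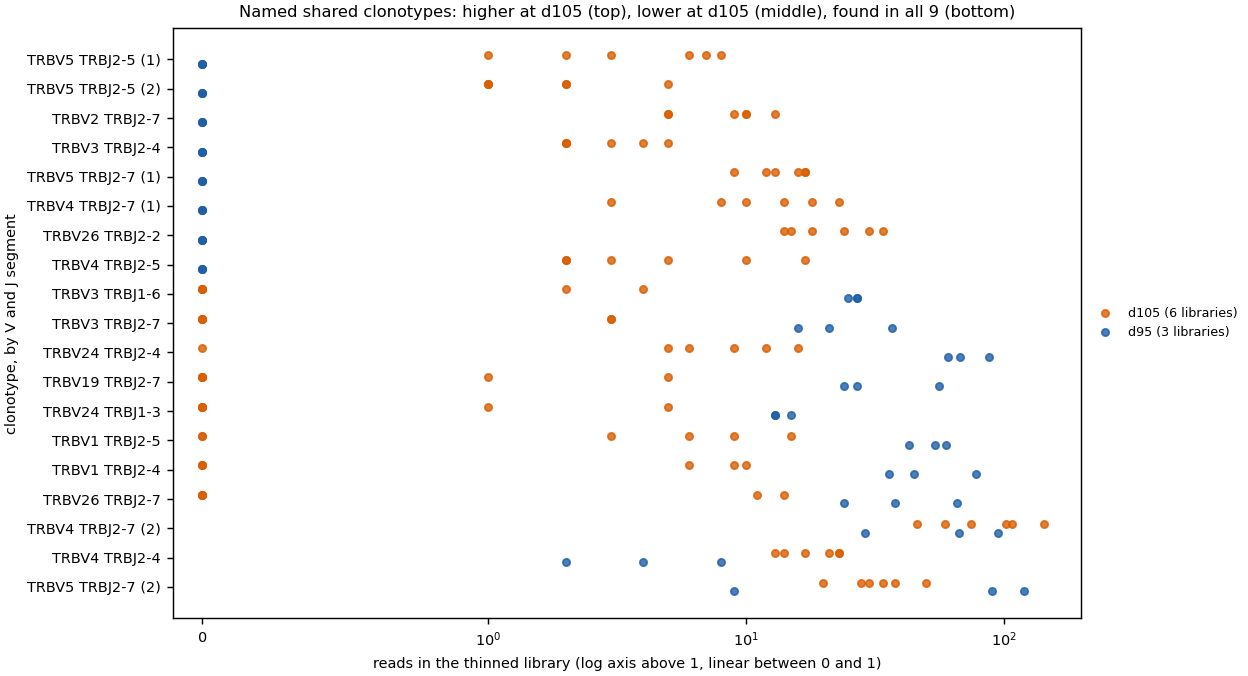
Reads of the named shared clonotypes in each thinned PLX+PTX library (log axis above 1, linear between 0 and 1), labelled by V and J segment, d105 (6 libraries) above d95 (3 libraries). The 8 clonotypes at the top have 0 reads in all d95 libraries, and the 8 in the middle have 13 to 88 reads there.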

How the data were processed

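TRB libraries from lymph node DNA were analysed from the deposited clonotype tables. Per the file headers, the authors deposited a clone count, which holds unscaled whole-number counts of reads, while the normalized and nb clone counts are scores made by the authors; each score divided by the count was constant within a V-J pair, which was checked on the files. Which caller and build were used is not stated here, and the files hold productive sequences alone. Libraries were thinned without replacement to 222369 reads (Python 3.11.15, numpy 2.4.6). Shares were tested with limma 3.58.1 (R 4.3.3) on log2(percent + 0.01) for features whose mean share reached 0.1%, clonotypes in at least 5 of 9 libraries on log2(CPM + 10), and single measures by exact permutation, all 2-sided with Benjamini-Hochberg adjustment at 0.05. edgeR 4.0.16 and DESeq2 1.42.0 on thinned counts were alternatives. The limma fits were tested on simulated data.

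Named were segments that passed (up to 10 per direction) or stood on a list, pairs and length classes (5 per direction), clonotypes (8 per direction by adjusted p, and the 3 most abundant in all 9 libraries) and each library's largest clonotype. Members, segment lists and rules were chosen with earlier results of these data known. Reads per clonotype, junction measures and the contrast of pairs with other treatments were added after seeing the data. All 24 segments matched RefSeq symbols on chromosome 6 (GRCm38.p6). Nothing in the labels says that each library is a separate mouse, so p-values measure the spread between these samples.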

Additional observations from a re-analysis of the deposited data

Results flagged for a closer look

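Among 61 sets of 6 d105 values examined, 10 held a library whose gap to its neighbour was large for the range of the group; chance gives about 1 in 20. d105 replicate 4, the richest library, gave 4 of them: 12.45% of D-bearing clonotypes and 14.46% of D-bearing reads with 0 inserted bases, both the lowest of the 6, and 2.858 V bases trimmed per clonotype and 2.886 inserted bases by reads, both the highest. Replicate 2, the least rich of the 6, had the longest mean CDR3 with each clonotype once (14.01 amino acids) and the lowest TRBV5 share of normalised counts (15%). Replicate 1 had the highest TRBV24 share (8.56%) and the lowest TRBJ2-2 share (5.27%) of normalised counts. Replicate 3 had the lowest TRBD1 share of clonotypes with a D segment (54.98%), and replicate 5 the highest TRBV5 share of clonotypes (10.6%).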

How the results depend on the processing

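No paired analysis was possible because the replicate numbers were given in accession order and name no shared mouse, litter or day. Of single features with all libraries kept, 488 comparisons of an alternative with its result kept direction and side of the threshold, 131 lost the call, 12 gained one and 17 turned. With raw reads in place of normalised counts the log2 differences turned for TRBJ1-2 (0.0855), TRBJ2-2 (0.0933) and TRBJ2-3 (-0.0958) and for CDR3 lengths 10 (0.056), 12 (0.0935) and 15 (-0.0441), with 6 lengths called. For the same segments edgeR gave 0.0858, 0.0765 and -0.1066, and DESeq2 gave -0.3044 for TRBJ2-3, -0.1395 for TRBJ2-4, -0.0541 for TRBJ2-5 and -0.0561 for TRBV5, each tool calling 8 segments. With each clonotype once, 15 segments were called without thinning, 3 without a filter, 3 by DESeq2, 10 when all libraries shared the spread and 3 with the 4 d105 libraries of the lower number block. TRBV29 had -0.0379 without thinning and -0.014 in DESeq2. Pairs called were 27 by normalised count at a mean share of at least 1%, and with each clonotype once 7 at equal clonotypes, 14 without a filter and 10 at 1%. Length calls by normalised count were 1 with another seed and 1 without a filter; with each clonotype once they were 10 without thinning, 1 at 50% depth, 1 at equal clonotypes, 0 with at least 2 reads, 5 merged by amino acids and 0 without a filter. Shared clonotypes called were 41 without thinning, 9 at 50% depth, 1 in raw reads, 16 with a pseudocount of 1 CPM, 1 at 8 or more libraries and 3 by edgeR. In the lower number block 0 of 13 measures passed, with 35 regroupings and a smallest p of 0.0286, and expanded clonotypes by reads gave -0.0136. At equal clonotypes convergence gave -1.59 and passed with its sign turned, Morisita-Horn overlap without read weights gave -0.002 and Jaccard overlap -0.000317. The causes were not tested.

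Leaving out 1 library gave 11 to 17 segments by normalised count and 3 to 6 with each clonotype once, 56 to 79 and 13 to 29 pairs, 1 to 5 and 1 to 4 lengths, 7 to 19 segments by reads per clonotype, 2 to 71 shared clonotypes and 0 to 7 measures. Morisita-Horn differences were 0.0465 to 0.0792 and Jaccard differences 0.0152 to 0.0254. TRBV29 with each clonotype once gave -0.0342 to 0.081, the 10 largest clonotypes by reads -0.12 to 0.0911 and expanded clonotypes by reads -0.04 to 0.185. Without d95 replicate 1, the only library left out of it, the contrast with other treatments called 6 and 1 segments. The lowest library, at 222369 reads, limits the depth of every comparison.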
